A study of Mus musculus with 4 samples.

Results

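The 40 genes described here encode actin itself and the proteins that assemble, branch, bundle, pull on and anchor actin filaments. They were chosen by name, as actin cytoskeleton and contractility genes, and all 40 were found among the 32479 genes of the files. The study asked what happens to the epidermis when ceramide synthase 4, an enzyme that makes ceramides for membranes and the skin barrier, is missing. CerS4epi-/- mice carried floxed CerS4 alleles and K14-Cre (CerS4fl/flK14Cre+), and the control mice carried the same floxed alleles without Cre (CerS4fl/flK14Cre-). All mice were female C57BL/6N mice at postnatal day 19, with 2 mice per genotype. Each mouse has 1 BD Rhapsody count matrix, called a library here. The keratin-14 promoter that drives Cre is active in basal keratinocytes and passes the deletion on to their progeny, whereas T cells and Langerhans cells do not derive from these cells.

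Actin exists as monomers and as filaments, and the pool of monomers is held by thymosins and profilin while cofilin and its partners take old filaments apart. The Arp2/3 complex starts branches on existing filaments, tropomyosins and calponins lie along their sides, and non-muscle myosin II pulls on them. Alpha-actinins and filamin crosslink filaments, talin, vinculin and zyxin sit where filaments meet cell adhesions, and ezrin and moesin tie them to the plasma membrane. In the epidermis, basal cells hold on to the basement membrane through adhesions coupled to actin, and cells lose these contacts and flatten as they move up.

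Barcodes under 1200 counts or above 20% mitochondrial counts were left out, and the remaining 34153 cells came to 7567 to 9089 per mouse, with median depths of 3265 to 3884 counts per cell. The median share of mitochondrial counts was 8.66% and 8.56% in the control mice and 9.94% and 9.68% in the CerS4epi-/- mice. No cell barcode was shared between the 2 control libraries, where chance would give 87.1, and none between the 2 CerS4epi-/- libraries, where chance would give 77.1, while libraries of different genotype shared 64 to 102 barcodes. How the libraries were loaded and the genotype therefore cannot be told apart. The paper states that cells were labeled with a multiplexing kit before loading and that reads were separated by sample tag. If the mice of a genotype were loaded together, the spread between them leaves out variation between loadings. Transcripts of the targeted gene, Cers4, were counted mainly in sebaceous gland-like cells, T cell-like cells and cluster 4. In sebaceous gland-like cells the levels were 3215 and 2379 CPM in the control and 314 and 462 CPM in the CerS4epi-/- mice, from 11 and 2 control and 26 and 32 CerS4epi-/- cells. In T cell-like cells, which do not derive from keratinocytes, Cers4 was at 91.7 and 60.5 CPM in the control and 82.3 and 98.8 CPM in the CerS4epi-/- mice (log2 fold change 0.17 ± 0.33, adjusted p = 0.967). In cluster 4, a follicle cluster, it stood at 17.7 and 24.8 CPM in the control and 4.28 and 5.25 CPM in the CerS4epi-/- mice, and in the IFE layers at 5 counts per mouse or fewer. Since the counted reads lie near the ends of transcripts, they need not lie in the deleted part.

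Cells were grouped by clustering without the 40 genes and 147 other actin genes, and clusters were called by name only where their markers allowed it. Named classes were interfollicular epidermis (IFE) basal-like (8489 cells), IFE spinous-like (7382), IFE granular-like (3650), upper hair follicle-like (3461), cycling-like (914), T cell-like (456) and Langerhans cell-like cells (214). The main basal-like cluster (led by Igfbp3, Sparc and Antxr1), the larger granular-like cluster (led by F3, Ifitm6 and Arg1) and 1 of 2 spinous-like clusters (led by Alox12, Tesc and Skint5) were named by their scores and had no marker of any list among their 10 leading genes. Clusters 1 (3378 cells, led by Clca3a2, Plagl1 and Hlf) and 8 (3653 cells, led by Aldh3a1, Igfbp4 and Spock2) scored highest for the basal list but did not meet the naming rule. Cluster 4 (1690 cells, led by Klk10, Krt6a and Klk6) scored highest for the outer bulge list while 3 upper hair follicle markers were among its 10 leading genes, and cluster 11 (730 cells, led by 2310046K23Rik, Id4 and Slurp2) had both upper hair follicle and granular markers. The outer bulge-like cluster held 11 to 27 cells per mouse and the sebaceous gland-like cluster 2 to 32, so neither was tested. The name outer bulge-like rests on 1 marker among the 10 leading genes and was lost at resolution 1.2 and with seed 2. The 9 outer bulge markers summed to 1232 and 362 CPM in control and 987 and 1247 CPM in CerS4epi-/- mice there. In cluster 4, which was tested, they summed higher, to 2518 and 2167 against 2050 and 1622 CPM. Levels are in CPM, the counts of a gene scaled to a common library total after summing per mouse and class, and tests compare these sums between genotypes with the mouse as the replicate. Where 4 values follow each other the control mice come first, and the error after ± is the standard error (SE) for a log2 fold change and the SD for a level.

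Across classes the 40 genes did not move as a block. Tpm2, a tropomyosin, was called higher in CerS4epi-/- mice in 8 of the 9 keratinocyte classes tested, cluster 11 being the one without a call. Cald1, which encodes the myosin- and tropomyosin-binding protein caldesmon, was called higher in 7 of the 8 in which it could be tested, and Tagln2, which encodes the calponin-related transgelin 2, in 7 of 9. Msn, which encodes moesin, was called higher in 6 of 8, and Arpc1b, a subunit of the Arp2/3 complex, in 5 of 9. In the same classes, 23 members were called only higher, 5 only lower (Pfn1, Tpm4, Cnn3, Myl12a and Myl12b), 5 in both directions depending on the class (Actg1, Tmsb4x, Cap1, Tpm1 and Cnn2), and 7 in none (Wdr1, Arpc2, Vasp, Tpm3, Actn4, Tln1 and Pdlim1). Called in at least 1 of the 9 classes were thus 33 of the 40 members, beside 29.2% of the 13740 genes tested in at least 1 of them (14.8% only higher, 12.0% only lower and 2.32% in both directions). The median number of classes in which a gene could be tested was 9 for the members and 8 for these genes, and of the 33 members tested in all 9, 26 were called in at least 1, beside 37.7% of the 6434 such genes. Of the 23 members called only higher, 9 were called in cluster 4 and in no other of these classes (Actb, Cfl1, Tmsb10, Arpc3, Arpc5, Capzb, Myl6, Myl9 and Vcl). The classes come from the same 4 mice, so calls in several classes are not independent of each other. The 10 upper hair follicle markers also summed higher in both CerS4epi-/- mice than in both control mice in each of the 9 classes. In basal-like cells they summed to 285 and 272 CPM in the control and 428 and 492 CPM in the CerS4epi-/- mice. The sums were 623 and 702 against 1179 and 997 CPM in spinous-like cells. For cluster 8 they were 1081 and 697 against 2000 and 2496 CPM. Their part in the recurring rises was not tested.

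**Figure D1:**
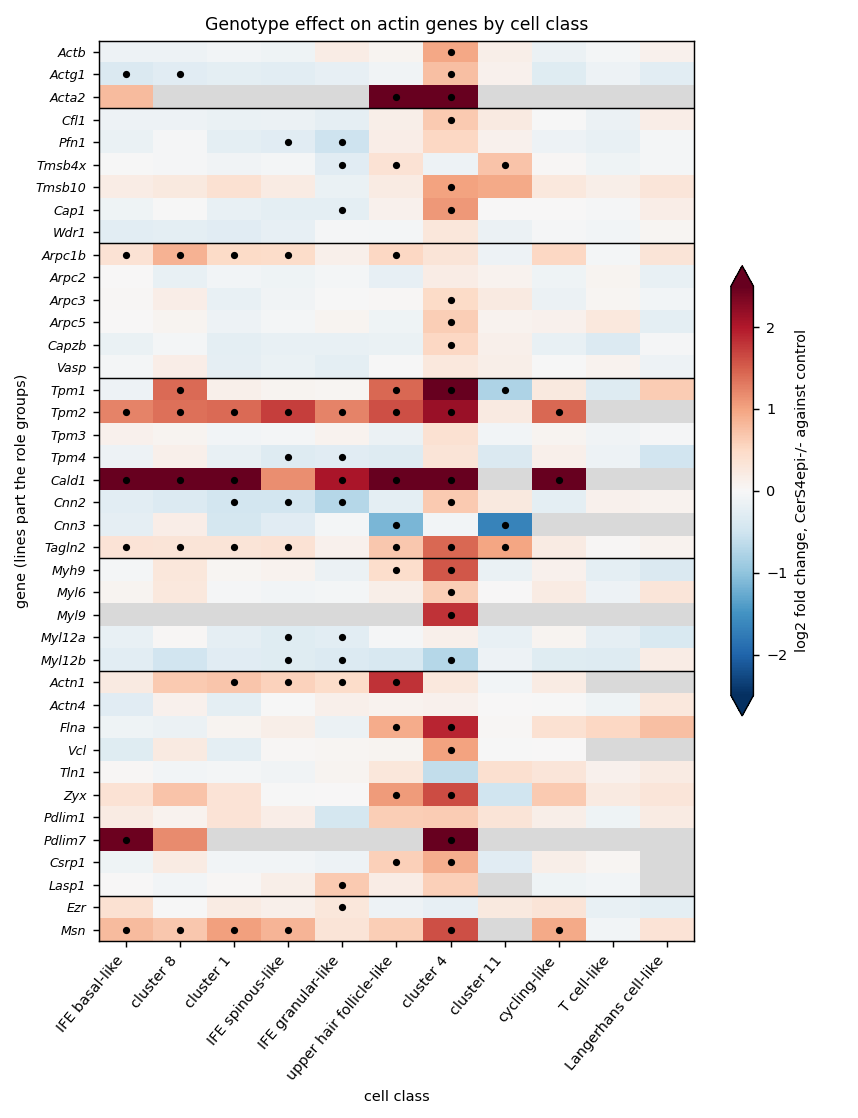
The plot of log2 fold changes (CerS4epi-/- against control; red higher, blue lower) shows the 40 genes in rows, parted by role group, and 11 cell classes in columns. Black dots mark adjusted p below 0.05 (edgeR) and grey fields genes with too few counts to test. Tpm2, Cald1, Tagln2, Msn and Arpc1b carry dots in 5 to 8 keratinocyte columns, cluster 4 has 24 dots, and the T cell-like and Langerhans cell-like columns have none.

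The genes that recur lie on different chromosomes. In GRCm39, Tpm2 lies at chr4:43514697-43524949, Cald1 at chr6:34575435-34752408, Tagln2 at chr1:172327426-172334947, Msn at chrX:95139129-95212557 and Arpc1b at chr5:145051025-145067515. Actg1, the member that fell in basal cells, lies at chr11:120236512-120239617. The values count reads over whole genes, so they do not tell isoforms apart.

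Because many actin genes are regulated by serum response factor, which binds the CArG box, and by TEAD factors, which bind CATTCC, RefSeq promoter windows (GRCm38.p6, 250 bases before to 50 after each start, both strands searched) were scanned for both motifs. Windows were found for 39 of the 40 genes, 45 windows in all. Only exact matches to CCWWWWWWGG, where W is A or T, were counted as CArG boxes. Near matches were not counted, such as ccctatatgg and ccttgtttgg in the Acta2 window, so a gene without a count may still hold a variant box. A CArG box stood in 5 of the 45 (11.1%; Actg1, Cnn2, Myl6, Myl9 and Vcl), against 1.63% of all 32851 windows and 4.32% of the 162 windows of the other actin genes. CATTCC stood in 10 of the 45 (22.2%) and in 14.7% of all windows and 22.2% of those of the other actin genes. The 250 bases before the start are shown for 2 genes that rose in several classes and 2 that fell in more than 1 class (and rose in cluster 4), with CArG boxes and CATTCC in capitals.
Tpm2 (chr4:43523555-43523804, minus strand): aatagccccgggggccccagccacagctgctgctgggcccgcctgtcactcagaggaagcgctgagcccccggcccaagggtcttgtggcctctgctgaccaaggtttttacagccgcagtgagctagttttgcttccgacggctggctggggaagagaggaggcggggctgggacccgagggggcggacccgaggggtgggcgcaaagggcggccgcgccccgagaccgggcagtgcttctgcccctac
Tagln2 (chr1:172499996-172500245, plus strand): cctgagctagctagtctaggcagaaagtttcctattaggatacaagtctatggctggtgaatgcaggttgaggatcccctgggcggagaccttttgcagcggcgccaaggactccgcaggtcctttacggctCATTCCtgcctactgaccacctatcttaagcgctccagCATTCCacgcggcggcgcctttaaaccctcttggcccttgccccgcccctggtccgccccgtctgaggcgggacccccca
Actg1 (chr11:120348496-120348745, minus strand): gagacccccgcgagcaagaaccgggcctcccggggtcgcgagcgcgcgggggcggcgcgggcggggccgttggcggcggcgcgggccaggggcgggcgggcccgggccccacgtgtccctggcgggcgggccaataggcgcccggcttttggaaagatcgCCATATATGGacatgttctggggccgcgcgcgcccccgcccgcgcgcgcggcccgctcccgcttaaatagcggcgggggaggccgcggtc
Cnn2 (chr10:79988350-79988599, plus strand): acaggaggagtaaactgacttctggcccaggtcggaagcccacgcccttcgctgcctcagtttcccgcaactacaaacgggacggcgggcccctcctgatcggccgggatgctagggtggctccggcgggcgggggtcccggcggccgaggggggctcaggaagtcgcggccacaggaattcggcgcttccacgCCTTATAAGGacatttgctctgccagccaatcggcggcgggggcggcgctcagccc
The Actg1 box begins 90 bases before the start and that of Cnn2 56 bases before it. In the Tagln2 window, CATTCC begins 118 and 80 bases before the start. The Tpm2 window holds neither motif, which says only that these letters are not in this window.

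Levels of the 40 genes differed widely between classes in each of the 4 mice, which is a description because the classes were made from the same cells. Between basal-like, spinous-like and granular-like cells, 15 members fell step by step in all 4 mice, and 6 rose step by step (Cap1, Arpc5, Tpm3, Tpm4, Cnn3 and Ezr). Flna, the crosslinker filamin A, went from 281 ± 17.9 CPM in basal-like to 69.8 ± 5.31 CPM in spinous-like and 13.4 ± 1.52 CPM in granular-like cells (n = 4 mice). Csrp1, a LIM protein of actin bundles, and Tagln2 were 13.8 and 8.63 times higher in basal-like than in granular-like cells. Cfl1, which encodes cofilin, went from 2309 ± 144 CPM to 322 ± 32.1 CPM and Tmsb4x, which encodes the monomer-holding thymosin beta 4, from 3550.0 ± 129 CPM to 562 ± 67.7 CPM. Each of these steps was seen in every mouse.

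A smaller set was high at the top of the epidermis. Cnn3, which encodes calponin 3, stood at 5.66 ± 1.08 CPM in basal-like, 82.5 ± 10.4 CPM in spinous-like and 1023 ± 55.6 CPM in granular-like cells. Actn1, which encodes alpha-actinin 1, was lowest in the middle layer, with 107 ± 11.7 CPM, 14.8 ± 3.39 CPM and 1101 ± 207 CPM in the same order. Tpm1 had the same shape, with 169 ± 10.7 CPM, 72.3 ± 7.16 CPM and 907 ± 75.7 CPM. Ezr, which encodes ezrin, was 3.73 times and Cap1, a cofilin partner, 2.64 times higher in granular-like than in basal-like cells.

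T cell-like and Langerhans cell-like cells each exceeded the 4 named IFE and follicle classes for a part of the list. Pfn1, Tmsb4x, Arpc1b, Arpc3, Myl12b, Tln1, Pdlim7 and Msn did so in both. Of these, Pfn1, Tmsb4x, Arpc1b, Tln1 and Msn were also among the members that fell step by step in the IFE. Arpc3 and Myl12b were instead lower in basal-like than in granular-like cells in all 4 mice, and Pdlim7 did neither in all 4. In all 4 mice, 13 members were higher in T cell-like cells than in any of the 4 named IFE and follicle classes, among them Tmsb10, another beta thymosin, at 1464 ± 275 CPM against 88.1 ± 6.42 CPM in basal-like cells. Msn stood at 295 ± 48.3 CPM in T cell-like cells and 52.6 ± 17.0 CPM in basal-like cells, and the adhesion proteins Zyx and Tln1 were 3.73 and 2.48 times higher in T cell-like than in basal-like cells. Langerhans cell-like cells had more than the named keratinocyte classes for 9 members in all 4 mice, with Arpc1b at 1002 ± 186 CPM and the filament-elongating factor Vasp at 654 ± 113 CPM. Conversely Flna, Csrp1, Pdlim1, Cnn3 and Actn1 were lower in T cell-like cells than in at least 1 IFE layer in every mouse.

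**Figure D2:**
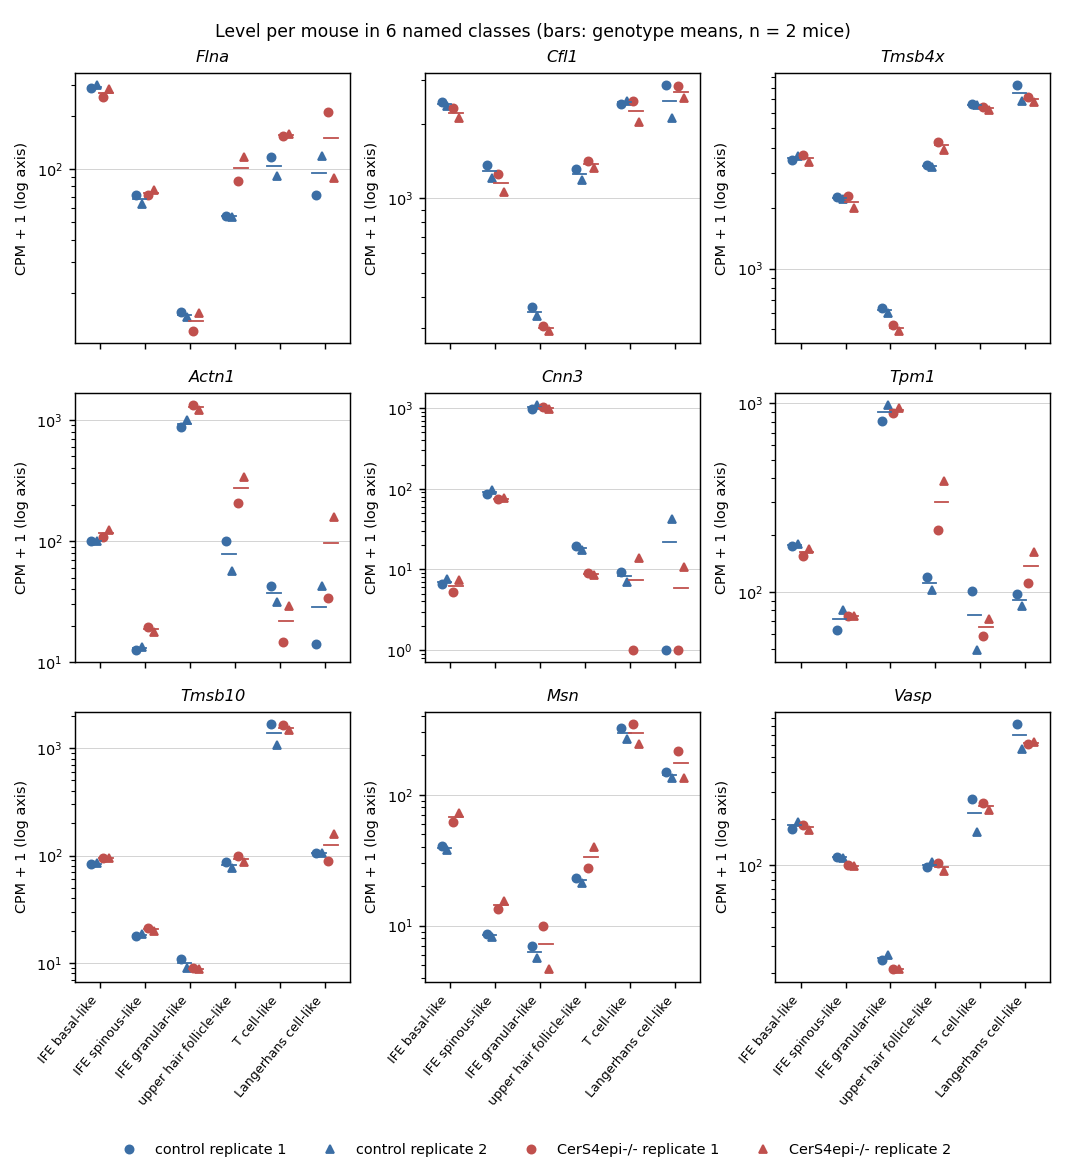
The plot gives CPM + 1 on a log axis for 9 members in 6 named classes, 1 point per mouse (blue control, red CerS4epi-/-; bars are genotype means of 2 mice). Flna, Cfl1 and Tmsb4x fall from basal-like to granular-like cells, Actn1, Cnn3 and Tpm1 are highest in granular-like cells, Tmsb10 and Msn in T cell-like cells, and Vasp in Langerhans cell-like cells.

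In IFE basal-like cells, the layer on the basement membrane, 6 members were higher and 1 was lower in CerS4epi-/- mice. Of 39 members tested this is to be read against 2.48% of all 12110 genes called higher and 1.49% called lower (edgeR quasi-likelihood test, adjusted p below 0.05). The median log2 fold change was -0.002 over the members and 0.0 over all genes, and the members ranged from -0.36 to 2.79. The tropomyosins and other filament-side proteins held 3 of the 6 rises, and no myosin or monomer-binding gene was called.

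Cald1 was low in control basal-like cells and stood at 3.14 and 2.28 CPM in the control and 17.1 and 20.7 CPM in the CerS4epi-/- mice (log2 fold change 2.79 ± 0.23, adjusted p = 4.03e-05). Counts came from 0.875% and 0.576% of the control and 5.38% and 5.67% of the CerS4epi-/- basal-like cells. In T cell-like cells of the same mice, Cald1 had 0 and 0 counts in the control and 0 and 3 counts in the CerS4epi-/- mice. Median depth was 1740.0 counts in the T cell-like cluster and 2932 in the main basal-like cluster. Tpm2 stood at 18.2 and 28.4 CPM in the control and 54.7 and 55.02 CPM in the CerS4epi-/- mice (log2 fold change 1.24 ± 0.17, adjusted p = 0.0013), and Msn at 39.9 and 36.9 CPM in the control and 61.3 and 72.2 CPM in the CerS4epi-/- mice (log2 fold change 0.80 ± 0.12, adjusted p = 0.00256). For all 3 genes both CerS4epi-/- mice lay above both control mice.

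Arpc1b and Tagln2 moved by less. Arpc1b was at 167 and 171 against 219.7 and 216 CPM (log2 fold change 0.37 ± 0.08, adjusted p = 0.0278), while the other Arp2/3 subunits Arpc2, Arpc3 and Arpc5 had log2 fold changes of 0.0055, 0.02 and 0.02. Tagln2 was at 719 and 666 against 873 and 871 CPM (log2 fold change 0.34 ± 0.08, adjusted p = 0.0355). Pdlim7, a PDZ-LIM adaptor, rested on 4 and 3 control and 19 and 14 CerS4epi-/- counts (log2 fold change 2.46 ± 0.49, adjusted p = 0.0144). The one fall was Actg1, which encodes cytoplasmic gamma-actin, at 5161 and 5299 CPM in the control and 4049 and 4062 CPM in the CerS4epi-/- mice (log2 fold change -0.36 ± 0.08, adjusted p = 0.0206). With cells of at most 10% mitochondrial counts its log2 fold change was -0.29 and the call was lost (adjusted p = 0.0652). Without control replicate 2, the calls of Arpc1b, Tagln2 and Pdlim7 were lost and 4 members were called. The 20 immediate early and dissociation genes summed to 24693 and 23706 CPM in control and 28702 and 32132 CPM in CerS4epi-/- basal-like cells, and their part in these results was not tested.

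Clusters 1 and 8, the unnamed clusters that scored as basal, had the same number of calls, 6 higher and 1 lower in each. Cluster 1 was tested for 37 members (2.86% of all genes called higher, 1.43% lower) and cluster 8 for 38 (2.91% and 2.81%). In cluster 1, Cald1 was at 1.02 and 1.56 against 7.84 and 7.85 CPM (log2 fold change 2.55 ± 0.43, adjusted p = 0.00138) and Tpm2 at 4.06 and 7.001 against 14.5 and 16.1 CPM (log2 fold change 1.42 ± 0.28, adjusted p = 0.00559). Msn there was at 19.96 and 18.7 against 35.5 and 43.4 CPM (log2 fold change 1.03 ± 0.18, adjusted p = 0.00133), Actn1 at 33.5 and 30.9 against 48.99 and 54.97 CPM (log2 fold change 0.70 ± 0.15, adjusted p = 0.00847), and Arpc1b and Tagln2 also rose. Its one fall was Cnn2, which encodes calponin 2, at 308 and 306 against 231 and 211 CPM (log2 fold change -0.46 ± 0.09, adjusted p = 0.00493).

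Cluster 8 differed from cluster 1 in Tpm1, which was at 38.9 and 43.6 CPM in the control and 89.3 and 132 CPM in the CerS4epi-/- mice (log2 fold change 1.42 ± 0.21, adjusted p = 0.002), although the difference between the clusters was not tested. Arpc1b in cluster 8 was at 176 and 154 against 281 and 326 CPM (log2 fold change 0.87 ± 0.12, adjusted p = 0.00137). Cald1 stood apart between the CerS4epi-/- mice, at 14.9 and 7.65 against 28.6 and 107 CPM (log2 fold change 2.51 ± 0.62, adjusted p = 0.037), and Tpm2 was at 52.6 and 39.8 against 97.6 and 148 CPM (log2 fold change 1.38 ± 0.21, adjusted p = 0.00305). Msn and Tagln2 rose by 0.68 and 0.31 on the log2 scale, and Actg1 fell by 0.28. Of the 7 calls in cluster 8, 2 (Tpm1 and Arpc1b) were left without control replicate 2 and 3 without control replicate 1, while 11 members were called without CerS4epi-/- replicate 1. With the mouse number as a block there were 12 calls in each of these clusters, and with DESeq2 3. The immediate early genes summed to 30546 and 29824 CPM in control and 25208 and 26879 CPM in CerS4epi-/- cells of cluster 8, the opposite order to basal-like cells.

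**Figure D3:**
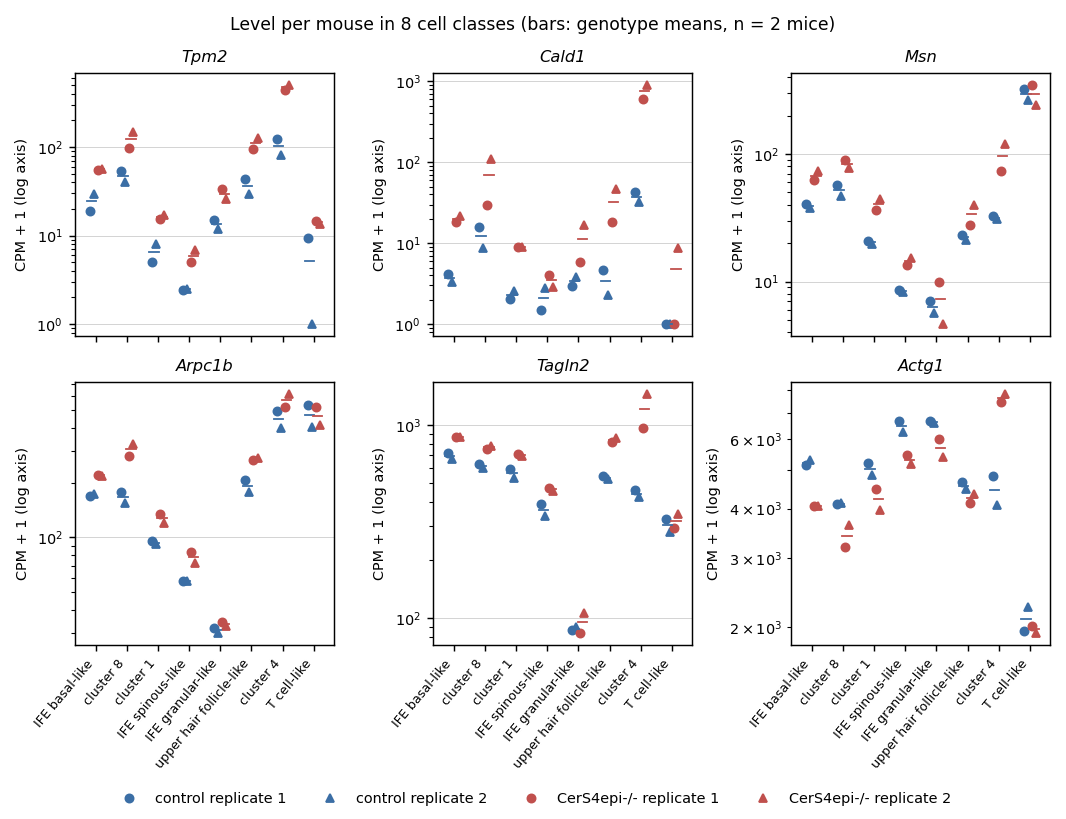
The plot gives CPM + 1 on a log axis for 6 members in 8 cell classes, 1 point per mouse (blue control, red CerS4epi-/-; bars are genotype means of 2 mice). Tpm2 lies higher in both CerS4epi-/- mice in each of the 7 keratinocyte columns, Cald1 is at 0 in 3 of 4 mice in T cell-like cells, and Actg1 lies lower in CerS4epi-/- mice in the IFE columns and higher in cluster 4.

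In IFE spinous-like cells, the layer above the basal cells, 5 members rose and 5 fell. This is out of 37 tested, where 2.95% of 12369 genes were called higher and 2.17% lower. The rises were those of the basal layer in part, with Tpm2 at 1.43 and 1.498 against 4.06 and 5.81 CPM (log2 fold change 1.73 ± 0.30, adjusted p = 0.0154) and Msn at 7.62 and 7.23 against 12.5 and 14.4 CPM (log2 fold change 0.86 ± 0.16, adjusted p = 0.0191). Actn1 was at 11.6 and 12.3 against 18.6 and 16.8 CPM (log2 fold change 0.58 ± 0.13, adjusted p = 0.0427), Arpc1b at 56.96 and 56.9 against 82.2 and 71.6 CPM (log2 fold change 0.45 ± 0.09, adjusted p = 0.027) and Tagln2 at 388 and 338 against 473 and 454 CPM (log2 fold change 0.37 ± 0.08, adjusted p = 0.041).

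The spinous falls lay in monomer binding, filament-side proteins and myosin light chains. Cnn2 was at 491 and 488 CPM in the control and 341 and 368 CPM in the CerS4epi-/- mice (log2 fold change -0.45 ± 0.07, adjusted p = 0.00985), the largest of them. Tpm4 was at 431 and 445 against 353 and 341 CPM (log2 fold change -0.32 ± 0.07, adjusted p = 0.0337), and the regulatory light chains of myosin II Myl12a and Myl12b at 336 and 344 against 266 and 279 CPM (log2 fold change -0.31 ± 0.07, adjusted p = 0.04) and 139 and 142 against 114 and 112 CPM (log2 fold change -0.30 ± 0.07, adjusted p = 0.0448). Pfn1, which encodes profilin 1, was at 314 and 308 against 253 and 253 CPM (log2 fold change -0.29 ± 0.07, adjusted p = 0.0461). In Myl12b 33.1% and in Myl12a 8.49% of the counts came from entries that are not whole, where reads were shared with other genes, so the split between such genes is uncertain. Most of the spinous calls were lost whichever mouse was left out, in fits that leave a lone mouse in 1 genotype. Over all alternatives the log2 fold change of each called member kept its sign. It ranged from -0.33 to -0.28 for Myl12a and from 0.12 to 0.97 for Msn. The immediate early genes summed to 19836 and 15192 CPM in control and 24885 and 24935 CPM in CerS4epi-/- spinous-like cells, and their part was not tested.

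In IFE granular-like cells, the uppermost living layer, 5 members rose and 7 fell. Of 37 tested this stands beside 10.3% of 11780 genes called higher and 6.82% called lower, so the share of members called lower was above and that of members called higher was near the background. Tpm2 was at 13.8 and 10.9 against 32.5 and 24.9 CPM (log2 fold change 1.24 ± 0.18, adjusted p = 0.00174), Cald1 at 1.92 and 2.85 against 4.92 and 15.9 CPM (log2 fold change 2.04 ± 0.51, adjusted p = 0.0221) and Lasp1, an adaptor at adhesions, at 15.5 and 21.2 against 27.7 and 29.8 CPM (log2 fold change 0.65 ± 0.16, adjusted p = 0.0199). Actn1 and Ezr, highest here among the IFE, upper hair follicle-like and immune classes in every mouse, were also called higher. Actn1 was at 874 and 989 against 1332 and 1209.5 CPM (log2 fold change 0.46 ± 0.08, adjusted p = 0.00326) and Ezr at 1210.1 and 1324 against 1593 and 1476 CPM (log2 fold change 0.29 ± 0.07, adjusted p = 0.0197). Of the other members highest here in every mouse, Tpm4 and Cap1 were called lower, and Cnn3 and Tpm1 were not called.

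The granular falls included all of those seen in spinous-like cells. Cnn2 was at 306 and 312 CPM in the control and 202 and 175 CPM in the CerS4epi-/- mice (log2 fold change -0.71 ± 0.08, adjusted p = 0.000553), and Pfn1 at 139 and 118 CPM in the control and 94.8 and 84.04 CPM in the CerS4epi-/- mice (log2 fold change -0.51 ± 0.11, adjusted p = 0.0107). Myl12b was at 244 and 227 against 191 and 179 CPM (log2 fold change -0.34 ± 0.08, adjusted p = 0.0178), Tpm4 at 494 and 517 against 422 and 399.6 CPM (log2 fold change -0.29 ± 0.07, adjusted p = 0.0162) and Myl12a at 367 and 387 against 312 and 312 CPM (log2 fold change -0.26 ± 0.07, adjusted p = 0.0248). Tmsb4x was at 638 and 598 against 523 and 490.1 CPM (log2 fold change -0.28 ± 0.07, adjusted p = 0.0286), and Cap1 was the 7th. For each of these both CerS4epi-/- mice lay below both control mice. At a finer clustering, where the class took in a cluster of 715 cells that best matched cluster 11, Tmsb4x turned to a log2 fold change of 0.13. Of the 2 granular clusters, cluster 2 alone gave 2 members higher and 2 lower and cluster 10 alone none. Without CerS4epi-/- replicate 2 there were 3 rises and 1 fall, and without CerS4epi-/- replicate 1 there were 3 of each. The immediate early genes summed to 19666 and 14994 CPM in control and 27911 and 25484 CPM in CerS4epi-/- granular-like cells.

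A class-by-genotype test with the mouse as a block found no member whose genotype effect differed between spinous-like and basal-like cells at an adjusted p below 0.05 (39 tested; 9 at an unadjusted p below 0.05, and 119 of 12683 genes higher and 72 lower, 0.938% and 0.568%). For the falls seen in the upper layers, the effect in spinous-like minus that in basal-like cells was -0.19 ± 0.08, adjusted p = 0.324 for Cnn2 and -0.19 ± 0.08, adjusted p = 0.341 for Tpm4. That these calls were made in spinous-like and not in basal-like cells therefore does not show a difference between these 2 layers. Granular-like cells were not tested against basal-like cells in this way.

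Upper hair follicle-like cells, which line the funnel and junctional zone above the bulge, had the largest number of calls among the named classes, 12 members higher and 1 lower. Of 38 tested, this compares with 3.51% of 10328 genes called higher and 3.5% called lower. The median log2 fold change was 0.152 over the members and 0.006 over all genes, and 25 of the 38 were positive. By role, 4 of 9 tested crosslinking and adhesion-site genes rose (Actn1, Flna, Zyx and Csrp1) and 4 of 8 filament-side genes (Tpm1, Tpm2, Cald1 and Tagln2). The other rises were Acta2, Arpc1b, Myh9 and Tmsb4x.

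Actn1 stood at 98.5 and 55.5 CPM in the control and 207 and 338 CPM in the CerS4epi-/- mice (log2 fold change 1.81 ± 0.25, adjusted p = 0.00168), and Tpm1 at 119 and 102 CPM in the control and 213 and 387 CPM in the CerS4epi-/- mice (log2 fold change 1.45 ± 0.23, adjusted p = 0.00385). The size for Tpm1 depended on the clustering, with log2 fold changes of 3.0 at a finer clustering, 2.78 with seed 2 and 0.60 with seed 3, where the call was lost (adjusted p = 0.124). At the finer clustering the class took in a cluster of 881 cells led by Krt6a, Cald1 and Klk6, the closest match to cluster 4. Tpm2 was at 43.05 and 28.4 against 95.1 and 124 CPM (log2 fold change 1.61 ± 0.19, adjusted p = 0.000745) and Zyx at 43.6 and 34.03 against 69.9 and 92.0 CPM (log2 fold change 1.06 ± 0.18, adjusted p = 0.00522). In each of these 4 genes CerS4epi-/- replicate 2 was above replicate 1, and both were above the control mice. Cald1 was at 3.63 and 1.26 against 17.1 and 46.0 CPM (log2 fold change 3.57 ± 0.66, adjusted p = 0.00767), with counts in 0.865% and 0.348% of control and 3.45% and 5.59% of CerS4epi-/- cells. Acta2, smooth-muscle alpha-actin, had 1 count in the control and 47 in the CerS4epi-/- mice together, a ratio of 22.7 (exact 95% interval 3.88 to 914, counting error only). Of the 6 smooth muscle and pericyte markers, Des and Pdgfrb were at 0 in every mouse of this class, Rgs5 at 0, and Myh11 at 1 count in 1 control mouse, while Cspg4 had 2 and 2 control and 11 and 11 CerS4epi-/- counts. The summed list, mostly Notch3, was 188 to 197 CPM in all 4 mice. The fall was Cnn3, at 18.7 and 16.4 CPM in the control and 8.07 and 7.61 CPM in the CerS4epi-/- mice (log2 fold change -1.14 ± 0.26, adjusted p = 0.0223), and its direction was reversed at a finer clustering and with another seed (log2 fold changes of 0.88 and 0.0038). Without CerS4epi-/- replicate 2, 8 members were called, and at the finer clustering 23.

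Against basal-like cells, the genotype effect was larger in upper hair follicle-like cells for 10 members and smaller for 1 (39 tested; 1.45% of 12169 genes higher and 2.14% lower). Tpm1 rose in upper hair follicle-like cells and had a log2 fold change of -0.13 in basal-like cells, a difference of 1.52 ± 0.17, adjusted p = 9.06e-06. For Actn1 the difference was 1.56 ± 0.19, adjusted p = 1.77e-05, and for Flna 1.04 ± 0.14, adjusted p = 9.46e-05. The recurring genes were not among them except Tagln2 (0.34 ± 0.09, adjusted p = 0.0467), with Tpm2 at 0.33 ± 0.25, adjusted p = 0.635 and Cald1 at 0.77 ± 0.65, adjusted p = 0.688. The effect was smaller for Ezr (-0.49 ± 0.10, adjusted p = 0.00703). Leaving out control replicate 2 left 4 of these differences (Csrp1, Tpm1, Actn1 and Flna) and leaving out CerS4epi-/- replicate 2 left 6. The immediate early genes overlapped between genotypes in upper hair follicle-like cells (24464 and 19739 CPM in control, 22924 and 23110 CPM in CerS4epi-/- mice). Other marker lists did not overlap in this class. The 8 IFE spinous markers summed to 19990.0 and 24428 CPM in control and 14991 and 15532 CPM in CerS4epi-/- mice, the 10 IFE granular markers to 912 and 1120 against 744 and 730 CPM, and the 9 IFE basal markers to 2841 and 2992 against 4161 and 3764 CPM. The 10 upper hair follicle markers summed to 34056 and 27359 CPM in control and 35528 and 39263 CPM in CerS4epi-/- mice. Their part in the calls of this class was not tested.

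**Figure D4:**
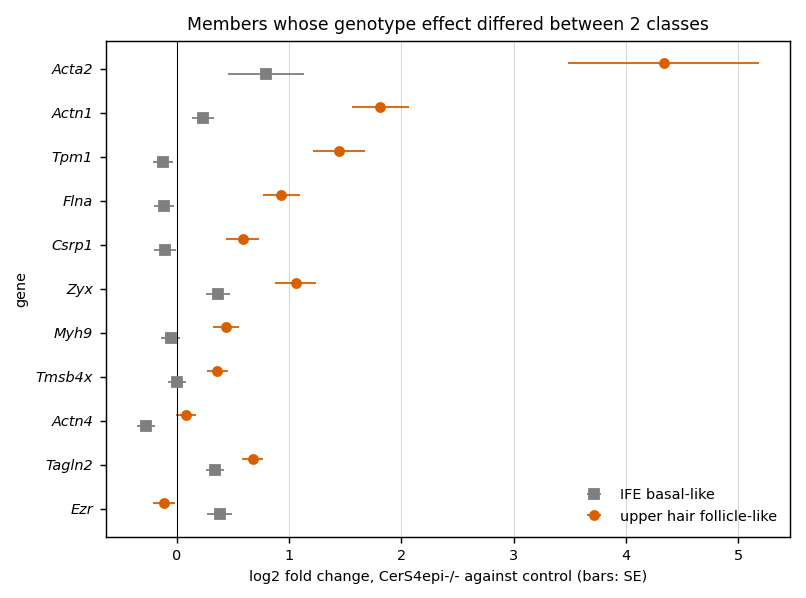
The plot sets the log2 fold changes (CerS4epi-/- against control, bars are SE) of IFE basal-like cells (grey squares) beside those of upper hair follicle-like cells (orange circles) for the 11 members whose genotype effect differed between the classes. Flna, Csrp1 and Tpm1 lie between -0.13 and -0.10 in basal-like cells and between 0.59 and 1.45 in upper hair follicle-like cells, and Ezr is the one gene with the larger value in basal-like cells.

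Cluster 4, which mixes upper follicle and bulge markers, had the most members called higher of all classes. All 40 members could be tested, and 23 were higher and 1 was lower, beside 8.74% of 9856 genes called higher and 7.81% lower. The median log2 fold change was 0.621 over the members and -0.004 over all genes. All 3 actins rose, with Actb at 3472 and 3135 CPM in the control and 5875 and 7282 CPM in the CerS4epi-/- mice (log2 fold change 0.97 ± 0.16, adjusted p = 0.00109) and Actg1 at 4826 and 4084 against 7440.3 and 7822 CPM (log2 fold change 0.75 ± 0.16, adjusted p = 0.0049). The cluster held 246 and 169 control and 609 and 666 CerS4epi-/- cells, so a shift in its makeup and a change within its cells cannot be told apart. Its marker lists moved with the genotype as well. The 10 upper hair follicle markers summed to 67040.0 and 54787 CPM in control and 102570.0 and 113000.0 CPM in CerS4epi-/- mice, and the 9 IFE basal markers to 6524 and 6755 against 9429 and 11636 CPM. Lower in both CerS4epi-/- mice were the 8 IFE spinous markers (13417 and 16241 against 10243 and 9759 CPM), the 9 outer bulge markers (2518 and 2167 against 2050.0 and 1622 CPM) and the 5 melanocyte markers (255 and 187 against 49.6 and 42.0 CPM). Their part in these calls was not tested.

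Cald1 was at 41.6 and 31.4 against 603 and 894 CPM (log2 fold change 4.31 ± 0.25, adjusted p = 2.04e-07), with counts in 8.94% and 7.69% of control and 39.6% and 43.8% of CerS4epi-/- cells. Tpm1 was at 578 and 428 against 2904 and 3422 CPM (log2 fold change 2.62 ± 0.18, adjusted p = 5.38e-07), Tpm2 at 124 and 80.98 against 444 and 499.7 CPM (log2 fold change 2.16 ± 0.18, adjusted p = 4.08e-06) and Flna at 46.7 and 52.9 against 136 and 241 CPM (log2 fold change 1.91 ± 0.28, adjusted p = 0.00042). Acta2 had 1 count in the control and 307 in the CerS4epi-/- mice together, a ratio of 67.3 (exact 95% interval 12.0 to 2660), and Pdlim7 had 3 and 132, a ratio of 9.64 (3.23 to 47.3). Des and Pdgfrb were at 0 in every mouse of cluster 4, Rgs5 at 0 to 1 and Myh11 at 0 to 2 counts. Notch3 had 170 and 147 control and 481 and 565 CerS4epi-/- counts, and Cspg4 12 and 9 against 22 and 29. All counts of the cluster came to 820464 and 613476 in the control and 3234614 and 3311129 in the CerS4epi-/- mice. Myosin genes rose too, with Myh9, the heavy chain of non-muscle myosin IIA, at 131 and 122 against 316 and 437 CPM (log2 fold change 1.54 ± 0.18, adjusted p = 6.92e-05) and Myl9, a regulatory light chain, at 11.4 and 3.31 against 22.1 and 34.3 CPM (log2 fold change 1.82 ± 0.46, adjusted p = 0.0156). The one fall was Myl12b at 146 and 121 against 84.9 and 82.2 CPM (log2 fold change -0.71 ± 0.16, adjusted p = 0.00681). The other upward calls lay in monomer binding (Cfl1, Tmsb10 and Cap1), Arp2/3 and capping (Arpc3, Arpc5 and Capzb), filament sides (Cnn2 and Tagln2), Myl6, adhesion sites (Vcl, Zyx and Csrp1) and Msn. With no filter on low counts 12 members were called, all higher. Cald1 was also among the 10 leading genes of the cluster, although it was held out of the clustering.

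Cluster 11 went partly the other way. Of 34 members tested, 2 were higher and 2 lower (2.37% of 7011 genes higher and 1.2% lower). Tagln2 was at 118 and 125 against 282 and 188 CPM (log2 fold change 0.98 ± 0.18, adjusted p = 0.00127) and Tmsb4x at 691 and 754 against 1379 and 973 CPM (log2 fold change 0.71 ± 0.14, adjusted p = 0.00182). Both fall toward the surface in the IFE. Cnn3 was at 101 and 106 against 36.4 and 27.1 CPM (log2 fold change -1.67 ± 0.24, adjusted p = 3.94e-05) and Tpm1 at 705 and 687 against 383 and 444 CPM (log2 fold change -0.76 ± 0.13, adjusted p = 0.00047), both of which are high in granular-like cells. In cycling-like cells 3 of 36 members rose and none fell (0.592% of 9458 genes higher, 0.243% lower), namely Cald1 at 5.26 and 5.40 against 18.1 and 60.6 CPM (log2 fold change 2.71 ± 0.53, adjusted p = 0.0228), Tpm2 at 20.4 and 33.1 against 62.9 and 84.2 CPM (log2 fold change 1.43 ± 0.24, adjusted p = 0.00912) and Msn at 45.4 and 33.7 against 69.2 and 85.3 CPM (log2 fold change 0.94 ± 0.20, adjusted p = 0.0383). With cells of at most 10% mitochondrial counts none of these 3 was called (adjusted p = 0.157 for Cald1, 0.232 for Tpm2 and 0.299 for Msn). DESeq2 called 1 member in cycling-like cells, and leaving out CerS4epi-/- replicate 1 or 2 gave 5 and 7, while in cluster 11 both rises were lost without CerS4epi-/- replicate 1.

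In T cell-like cells no member was called in either direction. Of 32 members tested, none had an unadjusted p below 0.05 either, and DESeq2 made no call, while 0.0223% of 4486 genes were called higher and 0 lower with edgeR. Their log2 fold changes lay between -0.34 and 0.52, with a median of -0.063 beside -0.007 for all genes. The sums rested on 106 and 65 control and 139 and 146 CerS4epi-/- cells, and the SE of Msn and Arpc1b were wider than in basal-like cells. Msn was at 325 and 266 against 346 and 243 CPM (log2 fold change -0.06 ± 0.23, adjusted p = 0.981), and Arpc1b at 529.5 and 405 against 518 and 413 CPM (log2 fold change -0.06 ± 0.21, adjusted p = 0.981). The effect in T cell-like minus that in basal-like cells passed the threshold for no member (39 tested, 2 at an unadjusted p below 0.05; 0.0335% of 11957 genes higher and 0.0836% lower), and for Msn it was -0.78 ± 0.26, adjusted p = 0.45. The 39 include members with too few counts to test in T cell-like cells alone, such as Acta2, Tpm2 and Cald1 (4.21 ± 7.29). For those members this test could not show a difference. Tpm2 and Cald1 had 2 and 0 and 0 and 0 counts in control and 5 and 5 and 0 and 3 counts in CerS4epi-/- T cell-like cells, too few to test.

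Langerhans cell-like cells, the antigen-presenting cells of the epidermis, gave no call either, with 30 members tested and none at an unadjusted p below 0.05 (0.0317% of 3157 genes higher and 0 lower; DESeq2 made no call). They numbered 74 and 41 in control and 45 and 54 in CerS4epi-/- mice. Log2 fold changes lay between -0.49 and 0.74. Without CerS4epi-/- replicate 1, Actn1 was called higher.

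Both cytoplasmic actins and 3 further members were followed in every named class. Actb, which encodes beta-actin, was at 3787 and 3746 against 3358 and 3521 CPM in basal-like, 4048 and 3702 against 3553 and 3584 CPM in spinous-like and 5478 and 5521 against 6349 and 6092 CPM in granular-like cells. It was at 3791 and 3689 against 3672 and 4073 CPM in upper hair follicle-like, 3723 and 3375 against 3679.9 and 3328 CPM in T cell-like and 6138 and 4246 against 5976 and 4843 CPM in Langerhans cell-like cells. None of these 6 differences was called, with log2 fold changes of -0.13 to 0.19. In Actb, 14.9% of the counts came from entries that are not whole.

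Actg1 was at 6684 and 6239.9 against 5458 and 5185 CPM in spinous-like cells (log2 fold change -0.27 ± 0.08, adjusted p = 0.0858) and 6674 and 6579 against 6011 and 5396 CPM in granular-like cells (log2 fold change -0.21 ± 0.07, adjusted p = 0.0696). The direction in these 2 layers was that of the basal layer, without passing the threshold. Both CerS4epi-/- mice lay below both control mice in each, an order that cannot give a 2-sided exact permutation p below 0.333. In upper hair follicle-like cells it was at 4665 and 4477 against 4131 and 4361 CPM, in T cell-like cells at 1951 and 2250.3 against 2013 and 1937 CPM and in Langerhans cell-like cells at 3608 and 3619 against 3157 and 2685 CPM, none of them called.

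Tmsb4x had no difference in basal-like cells (3463 and 3655 against 3667 and 3417 CPM, log2 fold change -0.0021 ± 0.08, adjusted p = 0.996) that could be detected, and in spinous-like cells it was at 2280.1 and 2219 against 2312 and 1997 CPM. It rose in the upper hair follicle-like class, at 3288 and 3208 against 4302 and 3925 CPM (log2 fold change 0.36 ± 0.10, adjusted p = 0.0463). This call was lost under 6 of 16 alternatives, among them at most 10% mitochondrial counts (adjusted p = 0.106), the replicate block (0.135) and leaving out CerS4epi-/- replicate 1 or 2 (0.361 and 0.239). T cell-like cells had 6629.6 and 6521 against 6433 and 6174 CPM and Langerhans cell-like cells 8189 and 6863 against 7203 and 6769 CPM, without a call.

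Myh9 was at 195 and 203 against 191 and 190.4 CPM in basal-like, 101 and 98.4 against 108 and 103 CPM in spinous-like and 46.1 and 42.6 against 36.5 and 43.3 CPM in granular-like cells, none called. It rose in upper hair follicle-like cells, at 115 and 111 against 141 and 161 CPM (log2 fold change 0.44 ± 0.11, adjusted p = 0.0417). This call was lost with DESeq2 (adjusted p = 0.266), with at least 2000 counts per cell (0.0563) and without any 1 of the 4 mice (0.058 to 0.283). In T cell-like cells it was at 288 and 266 against 241 and 238 CPM and in Langerhans cell-like cells at 255 and 229.7 against 193 and 172 CPM. Myl9 was nearly absent outside cluster 4: it had 3 to 7 counts per mouse in basal-like cells, 0 to 2 in spinous-like, granular-like and upper hair follicle-like cells, and 0 in T cell-like and Langerhans cell-like cells, and was tested in none of them.

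The other 147 actin genes, a wider list of regulators and motors, give the setting for the 40. In basal-like cells 4 of 110 tested rose and 3 fell, beside 2.48% of all genes called higher and 1.49% lower. Enah, an elongation factor, was at 50.1 and 53.6 against 77.7 and 71.4 CPM (log2 fold change 0.53 ± 0.10, adjusted p = 0.0138) and Rhob, a small GTPase, at 199 and 211 against 268 and 281 CPM (log2 fold change 0.43 ± 0.08, adjusted p = 0.0139). Pls1, which encodes plastin 1, fell, at 8.64 and 10.1 against 4.46 and 2.24 CPM (log2 fold change -1.41 ± 0.29, adjusted p = 0.0174), and Ppp1r12b and Micall1 fell by 0.66 and 0.58 on the log2 scale. In spinous-like cells 5 of 110 rose and 2 fell, beside 2.95% of all genes called higher and 2.17% lower. The rises were led by Palld, which encodes palladin, at 4.86 and 5.199 against 13.9 and 9.58 CPM (log2 fold change 1.26 ± 0.21, adjusted p = 0.0139), with Svil and Rhob next (0.71 and 0.53). The falls were Cfl2 and Dstn (-0.33 and -0.32), both of the cofilin family.

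In granular-like cells 16 of 101 of these other genes rose and 10 fell, beside 10.3% of all genes called higher and 6.82% lower. Palld was at 4.66 and 4.99 against 16.2 and 18.9 CPM (log2 fold change 1.85 ± 0.20, adjusted p = 0.000427), Micall2 and Rhob rose by 1.40 and 0.79, and Fermt3, Lima1 and Arhgdib fell by 0.97, 0.56 and 0.45. In upper hair follicle-like cells 9 of 97 rose and 4 fell, beside 3.51% of all genes called higher and 3.5% lower. Palld was at 14.5 and 7.56 against 38.4 and 37.4 CPM (log2 fold change 1.76 ± 0.24, adjusted p = 0.00156), and Myo5a rose by 1.49. Mylk, which encodes myosin light chain kinase, was at 10.9 and 26.5 against 5.13 and 3.81 CPM (log2 fold change -1.97 ± 0.42, adjusted p = 0.0152), and Eps8l1 and Pdlim2 fell by 0.82 and 0.51. Palld was thus called higher in spinous-like, granular-like and upper hair follicle-like cells, and Rhob in each of the 3 IFE layers.

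In cluster 4, 16 of 100 of the other genes rose and 8 fell, beside 8.74% of all genes called higher and 7.81% lower. Fscn1, which encodes the bundling protein fascin, was at 1.26 and 4.96 against 31.4 and 89.5 CPM (log2 fold change 4.35 ± 0.82, adjusted p = 0.0023), and Fmnl2 had 2 counts in the control and 128 in the CerS4epi-/- mice (ratio 14.0, exact 95% interval 3.8 to 117). Csrp2, Pdlim3 and Parva fell by 2.89, 1.78 and 1.33. In cluster 1, 3 of 96 rose (Enah, Svil and Rhob, by 0.77, 0.54 and 0.46) and 4 fell, led by Pls1, Ssh2 and Gsn (-1.62, -0.66 and -0.60). In cluster 8, 6 of 100 rose, led by Marcks, Pdlim4 and Enah (1.42, 1.23 and 1.07), and 6 fell, led by Pdlim2, Daam1 and Ssh2 (-0.69, -0.63 and -0.63). In cluster 11 Rhob rose by 0.92, and Parva and Inf2 fell by 1.40 and 0.93, of 78 tested. Of all genes, 2.86% were called higher and 1.43% lower in cluster 1, and 2.91% and 2.81% in cluster 8. For cluster 11 these shares were 2.37% and 1.2%. Enah was called higher in basal-like cells and in both clusters that scored as basal. None of the 75 tested in T cell-like, 64 in Langerhans cell-like and 95 in cycling-like cells was called. At most 0.592% of all genes were called higher and 0.243% lower in these classes.

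Summed over all cells of a mouse, which is a description because the mix of classes differed between mice, Cald1 was at 3.39 and 2.84 against 49.9 and 103 CPM and Tpm2 at 18.3 and 16.0 against 69.3 and 91.6 CPM. Msn was at 23.03 and 18.7 against 39.3 and 47.3 CPM and Zyx at 41.5 and 36.9 against 75.3 and 88.6 CPM, while Cnn3, the granular calponin, was at 229 and 279 against 182 and 175 CPM. Cluster 4, where Cald1 was highest, made up 415 of the control and 1275 of the CerS4epi-/- cells. In such sums, more cells of a class and more RNA per cell cannot be told apart.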

How the data were processed

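Epidermal cells of the back skin of 4 mice were profiled as single cells on the BD Rhapsody platform. The deposited tables hold expected counts per gene and barcode, which the authors made with fastp 0.23.2 and the single-cell mode of STAR 2.7.10a on GRCm39, sharing reads that map to several genes by expectation maximization as the names of the matrices state, and 4.59 to 4.86% of the entries are not whole numbers. Barcodes with fewer than 1200 counts or more than 20% mitochondrial counts were removed here. Cells were normalized with scran 1.30.0 and clustered with Scanpy 1.11.5 (3000 variable genes, 100 principal components, 30 neighbours, Leiden resolution 0.8, seed 1) after the 40 genes and 147 other actin genes had been taken out. No doublets were removed in the main analysis. A cluster took the name of its highest-scoring marker list if at least 3 of the markers were detected in at least 10% of its cells and no other list had more markers among its 10 leading genes.

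Counts were summed per mouse and class, rounded and tested with edgeR 4.0.16 (quasi-likelihood test, TMM scaling, filterByExpr), with Benjamini-Hochberg adjustment over all genes tested and a threshold of 0.05. Classes with fewer than 20 cells in a mouse were not tested. Differences of the genotype effect between classes were tested as an interaction with the mouse as a block. DESeq2 1.42.0 was an alternative. With 2 mice per genotype an exact permutation test of a single value cannot go below a 2-sided p of 0.333, and the p-values given rest on the spread between 2 mice that edgeR shares across genes. On simulated basal-like sums over 12110 genes, 100 of 100 genes changed by 2 on the log2 scale were called and 69 of 100 changed by 1, with 5 unchanged genes called. On simulated sums for the difference between upper hair follicle-like and basal-like cells over 12178 genes, 99 of 100 and 34 of 100 were called. Both simulations gave every gene the same spread between mice and changed only genes with ample expected counts. They therefore check the fits and do not give the power or error rate in the real sums, least of all for genes with few counts.

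The 40 genes, the lists and the tests were chosen with earlier results of these data known. Named are, in each class, up to 6 members that rose and 6 that fell past the threshold by size of the fold change, 5 members in every named class (Actb, Actg1, Tmsb4x, Myh9 and Myl9), and 3 rises and 3 falls among the other actin genes; differences between classes and levels by class name further members. Some of the other actin genes that this rule picks are not reported here. Intervals of count ratios are exact and cover counting error only. Total counts per library were 39231945 to 53106317. In a class-by-class check, deviations of mice with the same number correlated by -0.04 to 0.13, so the numbers were not taken to pair mice. Promoter windows came from RefSeq (GRCm38.p6) and gene positions from GENCODE on GRCm39.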

Additional observations from a re-analysis of the deposited data

Results flagged for a closer look

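For 11 of the 40 genes the effect of genotype differed between upper hair follicle-like and IFE basal-like cells by the interaction test of edgeR (adjusted p below 0.05), with the same 4 mice in both classes. Values are the log2 fold change in upper hair follicle-like cells minus that in basal-like cells, with the SE. The crosslinkers and adhesion-site proteins made up 5 of the 11, with Actn1 at 1.56 ± 0.19 (adjusted p = 1.77e-05), Flna at 1.04 ± 0.14 (adjusted p = 9.46e-05), Csrp1 at 0.69 ± 0.12 (adjusted p = 0.000799), Zyx at 0.68 ± 0.19 (adjusted p = 0.0487) and Actn4 at 0.36 ± 0.09 (adjusted p = 0.0356). Among filament-side proteins, Tpm1 was at 1.52 ± 0.17 (adjusted p = 9.06e-06) and Tagln2, which rose in both classes, at 0.34 ± 0.09 (adjusted p = 0.0467). Acta2 was at 3.63 ± 0.99 (adjusted p = 0.0444), resting on 1 count in the control mice of the upper hair follicle-like class, Myh9 at 0.49 ± 0.12 (adjusted p = 0.0264) and Tmsb4x at 0.36 ± 0.08 (adjusted p = 0.0121). Ezr was the one with the smaller effect in the follicle, at -0.49 ± 0.10 (adjusted p = 0.00703). Actn4 was called in neither class alone. Without control replicate 2, Csrp1, Tpm1, Actn1 and Flna passed the threshold.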

How the results depend on the processing

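With DESeq2 4 members were called in basal-like cells, and with at most 10% mitochondrial counts 4 in basal-like and 6 in spinous-like cells, beside 7 and 10. Single clusters gave 3 (cluster 0) and 5 (cluster 7) of the 10 spinous calls and 0 (cluster 10) and 4 (cluster 2) of the 12 granular calls; this alternative was added after seeing the data. A finer clustering (resolution 1.2) gave 23 calls in upper hair follicle-like cells beside 13. There the class took in a cluster of 881 cells led by Krt6a, Cald1 and Klk6, the closest match to cluster 4. The 2 counts of calls therefore cover different cells. Leaving out 1 mouse at a time gave 4 to 10 calls in basal-like, 0 to 4 in spinous-like, 4 to 12 in granular-like, 8 to 12 in upper hair follicle-like and 0 to 1 in Langerhans cell-like cells, 4 to 12 differences between upper hair follicle-like and basal-like cells, and 0 to 1 between spinous-like and basal-like cells (Cald1 and Ezr, both lower in spinous-like cells); a lone mouse is then assumed to vary like the others. The direction turned 4 times for values called in either fit. These were Tmsb4x at resolution 1.2 in granular-like cells (0.13) and in cluster 4 (0.87), and Cnn3 in upper hair follicle-like cells at resolution 1.2 (0.88) and with seed 2 (0.0038). The classes held other sets of cells under these clusterings, and the cause of the turns was not tested. Of 1902 values for single genes under an alternative, 1634 kept direction and side of the threshold, 29 turned in sign while called in neither fit, 218 fell below it and 17 passed it. With the replicate number as a block, 10 members were called in basal-like, 12 in spinous-like, 14 in granular-like, 14 in upper hair follicle-like and 0 in T cell-like cells, and the pairing of numbers has no source in the labels. T cell-like cells with at least 2000 counts were too few per mouse to test.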
